A study of Homo sapiens with 6 samples.

Results

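The transcripts described here are 8 long noncoding RNAs (lncRNAs), namely MALAT1, NEAT1, KCNQ1OT1, NORAD, OIP5-AS1, PVT1, CYTOR and TUG1. They were chosen by gene symbol, and all 8 were found among the 35716 genes of the count table and passed the filter on low counts. RNA came from MIA PaCa-2, an established human line from a pancreatic ductal adenocarcinoma, labelled as wild type. One group of 3 libraries was kept for 24 h with 10 nM triptolide, a diterpenoid of the thunder god vine that inhibits XPB, the ATPase of TFIIH, and with it the start of transcription. The other group of 3 libraries was kept for 24 h in DMEM with 10% serum and no treatment. Nothing in the labels ties the libraries of a group to cultures of their own, and the p-values therefore speak only of library-to-library spread, possibly technical.

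Long noncoding RNAs are transcripts of RNA polymerase II that are not translated into a protein of known function. MALAT1 and NEAT1 stay in the nucleus: MALAT1 gathers in nuclear speckles, where splicing factors are stored, and NEAT1 is the scaffold on which paraspeckles are built. KCNQ1OT1 acts on the chromatin of its own imprinted domain. NORAD, OIP5-AS1 and CYTOR are known mainly from the cytoplasm, and TUG1 from both compartments, so the nuclear name often given to such a set is background only. Whole-cell RNA was counted, and where in the cell these RNAs lay was not measured.

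Total counts ran from 16302961 to 23262713 per library, and levels are given as CPM, counts scaled to a common library size by TMM. Such levels are relative to the other RNAs of a library. Higher, lower, rose and fell are meant in that sense, and the amount of RNA per cell was not measured. Of 15202 genes tested with edgeR's quasi-likelihood test, 1527 were higher and 884 lower with triptolide at a Benjamini-Hochberg adjusted p under 0.05, the threshold used throughout. Higher genes made up 63.3% of these calls, 90.0% under ribosomal protein scaling and 73.8% under library totals. Groups were apart on the main axis of variation, which held 61.4% of the variance. Triptolide replicate 1 stood apart in base composition: the fifth of genes lowest in GC had a median log2 deviation from each gene's mean of -0.44 there, against 0.09 and 0.06 in triptolide replicates 2 and 3 and 0.01 to 0.18 in untreated libraries. Untreated replicate 3 was low for long genes, with a median of -0.19 for the fifth of genes with the longest exons, against -0.04 to 0.12 in the other 5 libraries. The 9 listed carcinoma markers were all detected in triptolide libraries, with a summed level of 4439 to 5217 CPM, against 5596 to 7762 CPM in untreated libraries. In untreated replicate 3, 2 of the 9 were at 0 counts, and 7 of the 9 passed the filter on low counts. Trophoblast markers, which belong to placenta and not to pancreas, summed to 590 to 953 CPM in triptolide libraries, against 28.4 to 30.9 CPM in untreated libraries. Of 17 tested trophoblast markers, 15 were higher with triptolide, and HSD3B1, ERVFRD-1, GCM1, PAGE4 and INSL4 were at 0 counts in every untreated library. Blood markers summed to 14.9 to 27.3 CPM with triptolide, against 4.27 to 5.05 CPM untreated, and fibroblast markers to 349 to 445 CPM, against 631 to 782 CPM. Of 12 tested fibroblast markers, 8 were lower with triptolide and none was higher. COL1A2, which made up most of the triptolide sum, had a mean of 329 CPM, against 323 CPM untreated. COL1A1 had 2.83 CPM, against 61.1 CPM, and CDH2 had 0 counts in all, against 104. The part of these other-cell markers in the lncRNA results was not tested.

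Of the 8 lncRNAs, MALAT1 and NEAT1 fell with triptolide, none rose, and 6 did not pass the edgeR test. KCNQ1OT1 was the 1 further gene with an unadjusted p under 0.05 and passed, as higher, in DESeq2 but not in limma-voom. The background over all tested genes was 15.9% called in either direction, 10% higher and 5.82% lower. Over the 1635 tested genes of long noncoding types it was 28% called, 25.1% higher and 2.94% lower. The 8 had a median log2 fold change of -0.07, against 0.00 over all tested genes and 0.46 over the tested long noncoding types. Groups did not overlap for 3 of the 8, MALAT1, NEAT1 and OIP5-AS1, while 36.7% of all tested genes had groups that did not overlap.

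**Figure D1:**
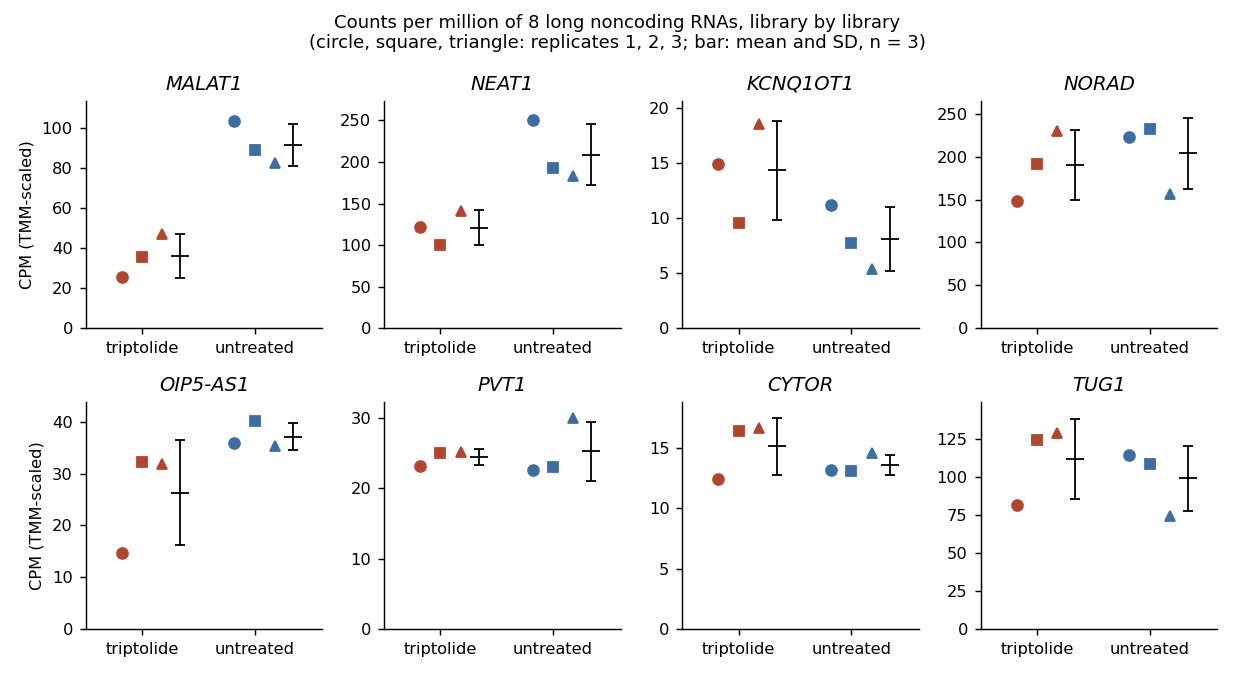
Level of each of the 8 lncRNAs in CPM (y axis, linear, from 0) in the 3 triptolide and the 3 untreated libraries, with the mean and SD of each group beside its points. MALAT1 lies between 25.3 and 47.2 CPM with triptolide and between 82.4 and 103 CPM untreated, while the groups of NORAD, PVT1, CYTOR, TUG1 and KCNQ1OT1 overlap.

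Levels of different genes were compared as CPM per kb of merged exon. NORAD was highest, with 35.6 ± 7.68 CPM per kb in triptolide libraries and 38.2 ± 7.79 in untreated libraries (SD, n = 3 each). In triptolide libraries TUG1 followed with 11.0 ± 2.60, then NEAT1 with 5.32 ± 0.90, PVT1 with 4.46 ± 0.21, MALAT1 with 4.08 ± 1.24 and OIP5-AS1 with 2.08 ± 0.80 CPM per kb. NEAT1 and PVT1, and PVT1 and MALAT1, differed by less than 1 SD, and the other neighbours in that order by more. In untreated libraries MALAT1 with 10.4 ± 1.20, TUG1 with 9.77 ± 2.14 and NEAT1 with 9.17 ± 1.61 CPM per kb were within their spread of each other. PVT1 with 4.60 ± 0.76 and OIP5-AS1 with 2.93 ± 0.21 CPM per kb came next in untreated libraries. CYTOR had 0.857 ± 0.135 CPM per kb with triptolide and 0.771 ± 0.047 untreated, and KCNQ1OT1 had 0.156 ± 0.049 with triptolide and 0.0882 ± 0.0319 untreated. The median over all tested genes was 3.47 CPM per kb. OIP5-AS1, CYTOR and KCNQ1OT1 lay below that median in both groups and were not abundant here by this measure, although KCNQ1OT1 is annotated as 1 unspliced exon of 91667 bases, most of which adds to its length.

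MALAT1 (ENSG00000251562, chromosome 11) had 25.3, 35.6 and 47.2 CPM in triptolide replicates 1, 2 and 3, against 103, 88.9 and 82.4 CPM in untreated replicates 1, 2 and 3. Every triptolide library lay below every untreated one. The means were 36.0 ± 10.9 CPM with triptolide and 91.5 ± 10.6 CPM untreated (SD, n = 3 each), from 2397 and 4939 counts in all. MALAT1 was 2.53-fold lower, with a log2 fold change of -1.34 ± 0.22 (SE, 95% interval -1.82 to -0.87) and an edgeR adjusted p of 0.00186. It kept this call in all 16 alternative fits, with log2 fold changes between -1.58 and -1.13. In bulk RNA, a lower share of each cell's RNA and fewer cells of a type cannot be told apart.

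NEAT1 (ENSG00000245532, chromosome 11) is transcribed in the same direction as MALAT1, 52.1 kb before it in the GENCODE 29 annotation. It had 122, 100.3 and 141 CPM in triptolide replicates 1, 2 and 3, against 251, 193 and 183 CPM in untreated replicates 1, 2 and 3. The groups did not overlap. The means were 121 ± 20.5 CPM with triptolide and 209 ± 36.5 CPM untreated (SD, n = 3 each), and NEAT1 was 1.72-fold lower. Its log2 fold change was -0.79 ± 0.19 (SE, 95% interval -1.19 to -0.38), with an edgeR adjusted p of 0.0138. The call was lost without untreated replicate 1 (log2 fold change -0.64, adjusted p = 0.0674) and under scaling on ribosomal protein genes (log2 fold change -0.62, adjusted p = 0.257), a scaling that moved the median of all genes to 0.17. The count of this gene joins a short polyadenylated isoform, and a long one that ends without a poly(A) tail and builds the paraspeckle, so the isoforms cannot be told apart.

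MALAT1 and the long NEAT1 isoform share a way of ending their RNA, in which RNase P cuts upstream of a tRNA-like fold and the new end is held in a triple helix of U-rich stretches and an A-rich tract. The sequences are shown because these ends carry no added poly(A) tail, while the libraries were made by oligo(dT) capture. The 110 bases before the cut are given 5′ to 3′ from GENCODE 29 on GRCh38, plus strand, with capitals for stretches of at least 10 bases that a search found in both ends. They lie at chr11:65506007-65506116 for MALAT1 and at chr11:65445431-65445540 for NEAT1, inside the exon of each gene.
MALAT1 end: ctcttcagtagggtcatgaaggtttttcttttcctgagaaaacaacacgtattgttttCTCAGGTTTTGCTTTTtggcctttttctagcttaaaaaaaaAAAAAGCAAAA
NEAT1 end: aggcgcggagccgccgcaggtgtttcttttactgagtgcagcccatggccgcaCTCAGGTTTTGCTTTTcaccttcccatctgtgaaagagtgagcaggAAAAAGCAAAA
The shared stretches are a 16-base run that holds a U-rich tract and an 11-base run at the very end. In MALAT1 the next 58 bases, chr11:65506117-65506174 on the plus strand, are the tRNA-like RNA that RNase P releases.
Released RNA: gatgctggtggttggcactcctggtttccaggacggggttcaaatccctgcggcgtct
How much of the MALAT1 and NEAT1 counts came from RNA with and without a tail was not tested.

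The log2 ratio of NEAT1 to MALAT1 counts, which needs no scaling between libraries, was 2.26, 1.49 and 1.58 in triptolide replicates 1, 2 and 3, against 1.28, 1.11 and 1.15 in untreated replicates 1, 2 and 3. MALAT1 counts were lower relative to NEAT1 counts in every triptolide library than in any untreated one. The means were 1.78 ± 0.42 with triptolide and 1.18 ± 0.09 untreated (SD, n = 3 each), a difference of 0.60. The exact two-sided permutation p was 0.1, the smallest that 3 against 3 libraries can give. Without triptolide replicate 1, the library low for genes of low GC, the difference was 0.36. MALAT1 was itself in the fifth of genes lowest in GC, with 40.3% in its longest transcript against a limit of 41.4%, and NEAT1 had 44.1%.

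The 8 lncRNAs took 0.0430%, 0.0543% and 0.0690% of all counts in triptolide replicates 1, 2 and 3, against 0.0786%, 0.0700% and 0.0539% in untreated replicates 1, 2 and 3. The groups overlapped, and the difference of -0.0121 percentage points gave an exact two-sided permutation p of 0.3. With replicate 1 of the triptolide libraries left out the difference was -0.0059, and with replicate 1 of the untreated libraries left out -0.0065. With replicate 3 left out it was -0.0188 for the triptolide library and -0.0189 for the untreated one. The share of MALAT1 alone differed by -0.0053 percentage points and that of NEAT1 by -0.0081, each with an exact permutation p of 0.1. The other 6 differed by 0.0013 percentage points, with an exact permutation p of 1.

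**Figure D2:**
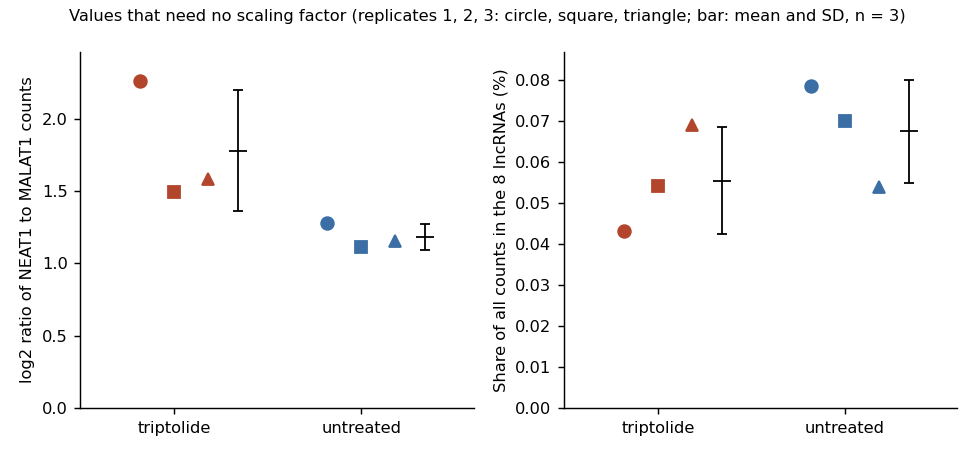
Left, log2 ratio of NEAT1 to MALAT1 counts; right, percent of all counts that fell in the 8 lncRNAs (both y axes linear, from 0), in triptolide and untreated libraries with the mean and SD of each group. The ratio is at least 1.49 in triptolide libraries and at most 1.28 in untreated libraries, while the shares of the groups overlap.

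The genes whose log2 CPM followed MALAT1 most closely over the 6 libraries, among 6860 with a mean of at least 20 CPM, were TNFSF4 with a Pearson r of 0.994, ZNF740 with 0.994 and POP1 with 0.992. For NEAT1 they were CYTH1 with a Pearson r of 0.992, TRIB2 with 0.988 and SLC30A5 with 0.981. MALAT1 and NEAT1 had an r of 0.911 with each other. These values describe 6 libraries that also differ by group, depth and base composition. Since genes chosen to follow MALAT1 or NEAT1 differ by group through that choice, their fold changes are given with no test. TNFSF4, a ligand of the TNF family, had a log2 fold change of -0.83, POP1, a protein of RNase P and RNase MRP, had -0.55, and the other 4 had -0.46 to -0.24.

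KCNQ1OT1 (ENSG00000269821, chromosome 11) is transcribed from the paternal allele, antisense to KCNQ1, and represses neighbouring genes of an imprinted domain on that allele. It had 14.9, 9.58 and 18.5 CPM in triptolide replicates 1, 2 and 3, against 11.2, 7.76 and 5.34 CPM in untreated replicates 1, 2 and 3. Triptolide replicate 2 lay below untreated replicate 1, so the groups overlapped. The means were 14.3 ± 4.48 CPM with triptolide and 8.09 ± 2.92 CPM untreated (SD, n = 3 each), with a log2 fold change of 0.82 ± 0.29 (SE, 95% interval 0.19 to 1.46). The edgeR adjusted p was 0.0741, while the unadjusted p was 0.0148. It passed the threshold in 7 of 16 alternative fits. Among these were DESeq2 (log2 fold change 0.82, adjusted p = 0.0351) and the GC offset (0.92, adjusted p = 0.0497). The fit without untreated replicate 1 passed too (1.12, adjusted p = 0.0301). Without untreated replicate 3 KCNQ1OT1 did not pass (log2 fold change 0.59, adjusted p = 0.2076). That library was low for long genes and had the lowest KCNQ1OT1 level. Without triptolide replicate 3, which had the highest level, KCNQ1OT1 did not pass either (0.59, adjusted p = 0.2501).

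All 91667 bases of KCNQ1OT1 lie opposite KCNQ1, a potassium channel gene, and no source used here gives the strand setting of the counting. That overlap is of whole gene spans, and how much of it falls on exons of KCNQ1 was not measured. If strands were not told apart, reads on exons of both genes can be shared, or counted for neither gene. KCNQ1 had 3.90, 3.33 and 3.04 CPM in triptolide replicates 1, 2 and 3, against 2.47, 2.83 and 2.70 CPM in untreated replicates 1, 2 and 3. The groups did not overlap, but the log2 fold change of 0.35 did not pass the test (edgeR adjusted p = 0.313). Of 8 tested genes of the domain, which include KCNQ1, 2 rose, none fell, and the median log2 fold change was 0.26, against 10% higher, 5.82% lower and a median of 0.00 over all tested genes. CDKN1C, a cyclin-dependent kinase inhibitor, had 9.45, 6.74 and 5.63 CPM with triptolide, against 2.02, 1.27 and 1.54 CPM untreated, and rose with a log2 fold change of 2.16 ± 0.27 (SE, edgeR adjusted p = 0.000402). PHLDA2, an imprinted gene that limits placental growth in mice, had 114, 88.3 and 67.8 CPM with triptolide, against 43.4, 41.7 and 53.4 CPM untreated, and rose with a log2 fold change of 0.96 ± 0.20 (SE, edgeR adjusted p = 0.00806). For both genes every triptolide library was above every untreated one, and at a minimum mean of 5 CPM the count that rose was 1, since CDKN1C was not tested there. CDKN1C and PHLDA2 are also transcribed in placenta, and they rose beside the trophoblast markers, which summed to 590 to 953 CPM with triptolide, against 28.4 to 30.9 CPM untreated. The part of those markers' source in CDKN1C, PHLDA2 and KCNQ1OT1 was not tested.

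NORAD (ENSG00000260032, chromosome 20) holds Pumilio proteins, which bind mRNAs and speed their decay, through many repeats of their binding site. It had 149, 192 and 231 CPM in triptolide replicates 1, 2 and 3, against 223, 232 and 156 CPM in untreated replicates 1, 2 and 3. The groups overlapped, with the lowest values in triptolide replicate 1 and untreated replicate 3. The log2 fold change was -0.10 ± 0.21 (SE, 95% interval -0.55 to 0.35), with an edgeR adjusted p of 0.784. The sign turned to a log2 fold change of 0.06 without triptolide replicate 1.

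The Pumilio motif, searched as TGTANATA on the transcript's strand only and counting overlaps, occurred 15 times in the 5339 bases of NORAD, or 2.81 times per kb. Of 10420 GENCODE 29 transcripts of 4000 to 6000 bases, 6 held at least 10 such motifs, or 0.0576%, with that of NORAD among the 6. Among the longest transcripts of the other lncRNAs, KCNQ1OT1 held 9, NEAT1 held 6, TUG1 held 2, OIP5-AS1 held 1, and MALAT1, PVT1 and CYTOR held none. Of the NORAD sites, 4 are shown, with the motif in capitals, to let the repeated unit be seen. They lie on the minus strand of GRCh38, inside the single exon, at chr20:36050185-36050208, chr20:36049806-36049829, chr20:36049705-36049728 and chr20:36047974-36047997.
NORAD site at base 753: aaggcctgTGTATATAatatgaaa
NORAD site at base 1132: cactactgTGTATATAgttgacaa
NORAD site at base 1233: tcacatttTGTAAATAcctttttg
NORAD site at base 2964: ccctactgTGTATATAgcggacaa
A motif match is a description of the letters and was not measured as binding here. In 7.56% of its windows of 100 bases NORAD is identical to another annotated gene, mainly OVCH1-AS1, so a part of its reads may be shared.

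Of 5 protein partners of NORAD, RBMX and PUM3 fell, none rose, and the median log2 fold change was -0.39, against 5.82% lower, 10% higher and a median of 0.00 over all tested genes. RBMX, an RNA-binding protein that associates with NORAD, had 204, 235 and 216 CPM with triptolide, against 393, 413 and 392 CPM untreated, and a log2 fold change of -0.87 ± 0.15 (SE, edgeR adjusted p = 0.00258). PUM3, a nucleolar Pumilio-domain protein, had 25.9, 41.9 and 31.6 CPM with triptolide, against 56.3, 66.0 and 73.4 CPM untreated, and a log2 fold change of -0.98 ± 0.20 (SE, edgeR adjusted p = 0.00707). Neither gene's groups overlapped. Under scaling on ribosomal protein genes none of the 5 passed, with adjusted p = 0.0865 for RBMX and 0.0941 for PUM3.

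TUG1 (ENSG00000253352, chromosome 22), known for its part in the development of the retina in mice and in binding chromatin regulators, is transcribed away from its neighbour MORC2. It had 81.5, 124 and 129 CPM in triptolide replicates 1, 2 and 3, against 115, 108 and 74.3 CPM in untreated replicates 1, 2 and 3. The groups overlapped in the way of NORAD, with triptolide replicate 1 and untreated replicate 3 the lowest of their groups. The log2 fold change was 0.17 ± 0.22 (SE, 95% interval -0.30 to 0.65), with an edgeR adjusted p of 0.628. Without untreated replicate 3 it was 0.00. MORC2, which codes for a chromatin-compacting ATPase, had a log2 fold change of 0.19 (edgeR adjusted p = 0.418).

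OIP5-AS1 (ENSG00000247556, chromosome 15), known in zebrafish and mammals as cyrano and for a site that binds the microRNA miR-7, had 14.6, 32.3 and 31.9 CPM in triptolide replicates 1, 2 and 3. Untreated replicates 1, 2 and 3 had 35.9, 40.2 and 35.4 CPM. The groups did not overlap, and triptolide replicate 1 was far below the other 5 libraries. The means were 26.3 ± 10.1 CPM with triptolide and 37.1 ± 2.64 CPM untreated (SD, n = 3 each). The log2 fold change of -0.49 ± 0.26 (SE, 95% interval -1.05 to 0.07) did not pass the test (edgeR adjusted p = 0.217), and without triptolide replicate 1 it was -0.19. The longest transcript of OIP5-AS1 has 38.4% GC, within the fifth of genes that were low in that library. OIP5, a centromere protein gene whose annotation overlaps OIP5-AS1 on the opposite strand by 470 bases, had 2.33, 3.37 and 3.15 CPM with triptolide, against 4.09, 4.49 and 5.29 CPM untreated (edgeR adjusted p = 0.0804). The log2 difference between OIP5-AS1 and OIP5 was 3.04 ± 0.39 with triptolide and 2.98 ± 0.23 untreated (exact permutation p = 0.7).

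The ends of the MALAT1, NORAD, TUG1 and OIP5-AS1 genes are shown because oligo(dT) beads capture RNA by its poly(A) tail. A poly(A) signal, searched as AATAAA on the transcript's strand, stands in the last 50 bases of their longest transcripts in GENCODE 29. Over all 206604 annotated transcripts of at least 50 bases, 24.7% have one there. The longest transcripts of the other 4 lncRNAs have none there. For NEAT1 that is the long isoform without a poly(A) tail, and shorter transcripts were not searched. The last 60 bases are given with the signal in capitals, from GRCh38.
MALAT1-202, chr11:65506410-65506469, plus strand: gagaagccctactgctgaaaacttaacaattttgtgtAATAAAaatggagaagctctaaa
NORAD-201, chr20:36045622-36045681, minus strand: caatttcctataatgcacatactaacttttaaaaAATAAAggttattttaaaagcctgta
TUG1-217, chr22:30979336-30979395, plus strand: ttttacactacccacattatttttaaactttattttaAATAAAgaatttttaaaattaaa
OIP5-AS1-201, chr15:41306475-41306534, plus strand: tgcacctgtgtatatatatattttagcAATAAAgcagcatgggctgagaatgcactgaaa
The MALAT1 transcript drawn here runs on past the cut that makes its usual end. MALAT1, with its signal, fell, NORAD, TUG1 and OIP5-AS1 did not pass the test, and no relation to the signal was tested.

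PVT1 (ENSG00000249859, chromosome 8) lies downstream of the oncogene MYC and is often amplified with it. It had 23.2, 25.0 and 25.2 CPM in triptolide replicates 1, 2 and 3, against 22.6, 23.1 and 30.1 CPM in untreated replicates 1, 2 and 3. The triptolide values lay within the untreated range. The log2 fold change was -0.04 ± 0.17 (SE, 95% interval -0.42 to 0.33), with an edgeR adjusted p of 0.890, and its sign depended on the scaling, with 0.03 under library totals and 0.17 under ribosomal protein scaling. MYC had 251, 260 and 232 CPM with triptolide, against 311, 296 and 332 CPM untreated, with a log2 fold change of -0.34 (edgeR adjusted p = 0.148). The groups did not overlap for MYC, which passed only with a GC offset (log2 fold change -0.41, adjusted p = 0.0242). The log2 difference between PVT1 and MYC was -3.33 ± 0.12 with triptolide and -3.64 ± 0.16 untreated, with no overlap (exact permutation p = 0.1, adjusted p = 0.4 over 4 pairs of a lncRNA and its partner).

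CYTOR (ENSG00000222041, chromosome 2), also called LINC00152, is known for raised levels in carcinomas. It had 12.4, 16.4 and 16.7 CPM in triptolide replicates 1, 2 and 3, against 13.2, 13.1 and 14.6 CPM in untreated replicates 1, 2 and 3. The groups overlapped through triptolide replicate 1. The log2 fold change was 0.16 ± 0.18 (SE, 95% interval -0.24 to 0.55), with an edgeR adjusted p of 0.602. A near copy, MIR4435-2HG, stands elsewhere on chromosome 2 and had 34.5 ± 6.27 CPM with triptolide and 32.9 ± 1.16 CPM untreated (SD, n = 3 each), with a log2 fold change of 0.07 (edgeR adjusted p = 0.831).

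The 2 copies are shown to let a reader judge how reads could be split between them. The spliced transcripts CYTOR-201 and MIR4435-2HG-203 were 98.8% identical over 515 aligned positions, with 5 substitutions and 1 gap. The same 120 bases of each are given from GENCODE 29 on GRCh38, with the 3 bases at which they differ in capitals. This stretch was chosen as the one of its length, without a gap, that holds the most substitutions. It has 3 of the 5 and is not typical of the whole alignment.
CYTOR: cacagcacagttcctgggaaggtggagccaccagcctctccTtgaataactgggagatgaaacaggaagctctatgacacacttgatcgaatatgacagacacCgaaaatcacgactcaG
MIR4435-2HG: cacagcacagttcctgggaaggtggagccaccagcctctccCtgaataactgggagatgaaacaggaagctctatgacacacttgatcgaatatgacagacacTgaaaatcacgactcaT
Over all annotated exons, 16.4% of the 100-base windows of CYTOR and 15.6% of those of MIR4435-2HG are identical in another gene. Between the 2 genes themselves, 10.6% of the windows of CYTOR and 14.3% of those of MIR4435-2HG are shared. These are shares of annotated windows and not of reads. No source used here says how such reads were assigned, so how uncertain the values of both genes are is not known.

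**Figure D3:**
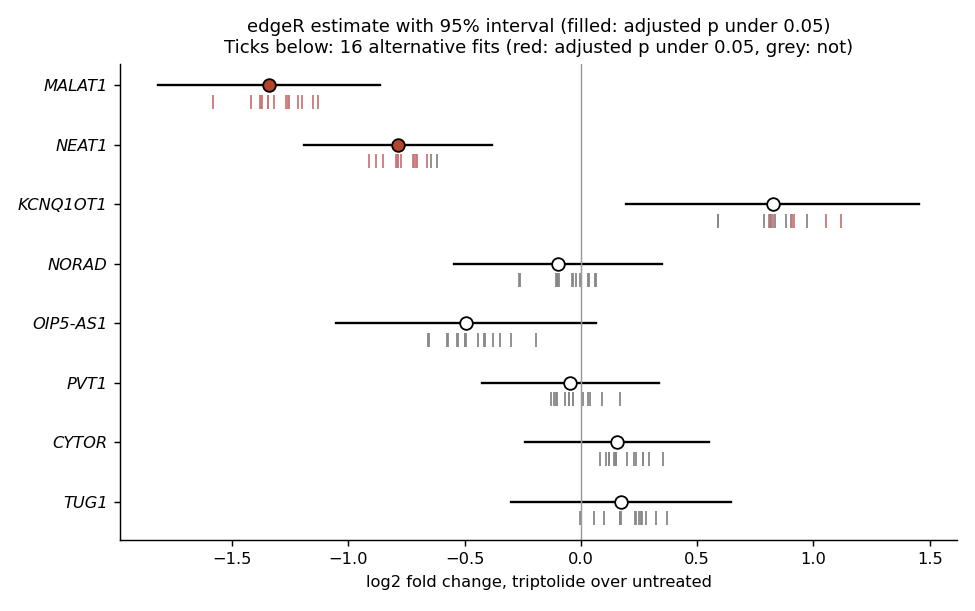
Log2 fold change of triptolide over untreated (x axis) for each lncRNA, as the edgeR estimate with its 95% interval, and as ticks beneath it the 16 alternative fits. The intervals of MALAT1 (-1.82 to -0.87), NEAT1 (-1.19 to -0.38) and KCNQ1OT1 (0.19 to 1.46) do not reach 0, and those of the other 5 do.

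Proteins that work with MALAT1 and NEAT1 were counted beside them. Of 14 tested paraspeckle proteins, 3 fell, none rose, and the median log2 fold change was -0.35, against 5.82% lower, 10% higher and a median of 0.00 over all tested genes. HNRNPH3, an hnRNP protein of paraspeckles, had 123 ± 1.90 CPM with triptolide and 257 ± 8.05 CPM untreated (SD, n = 3 each), and fell with a log2 fold change of -1.06 ± 0.15 (SE, edgeR adjusted p = 0.00065). DAZAP1 fell with a log2 fold change of -0.69 (edgeR adjusted p = 0.0114) and EWSR1 with -0.60 (edgeR adjusted p = 0.0393). Both are RNA-binding proteins, and EWSR1 lost its call in 10 of 16 alternatives. DAZAP1 lost its call under ribosomal protein scaling (adjusted p = 0.194), and at triptolide replicate 3 left out its adjusted p was 0.0685. The count of paraspeckle proteins that fell was between 1, under ribosomal protein scaling or without triptolide replicate 3, and 6, with the GC offset or without triptolide replicate 1. Over all genes, ribosomal protein scaling called 133 of 15202 lower, and the fit without triptolide replicate 3 called 457 of 15429. The GC offset called 1794 of 15202 lower, and the fit without triptolide replicate 1 called 1034 of 15721.

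Of 20 tested nuclear speckle proteins, 3 fell, none rose, and the median log2 fold change was -0.24, beside the same 5.82% lower and 10% higher over all tested genes. SRSF1, a splicing activator whose placement in speckles involves MALAT1, had 21.2, 56.2 and 53.0 CPM with triptolide, against 104, 121 and 127 CPM untreated, and fell with a log2 fold change of -1.43 ± 0.29 (SE, edgeR adjusted p = 0.00672). SRSF3 fell with a log2 fold change of -0.79 (edgeR adjusted p = 0.0179) and TRA2B with -0.53 (edgeR adjusted p = 0.0284). Both are splicing factors, and TRA2B lost its call in 8 of 16 alternatives. SRSF3 lost its call under ribosomal protein scaling (adjusted p = 0.161) and when replicate 3 of the triptolide libraries (adjusted p = 0.0563) or of the untreated ones (adjusted p = 0.0528) was left out. The count of speckle proteins that fell was between 1, under ribosomal protein scaling or without triptolide replicate 3, and 5, with the GC offset, where 1 also rose. Over all 15202 genes, ribosomal protein scaling called 133 lower, and the GC offset called 1794 lower and 2068 higher.

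Of 13 tested genes of the nuclear RNA exosome and its adaptors, which degrade unprotected nuclear transcripts, 1 fell, none rose, and the median log2 fold change was -0.33. With 5.82% of all tested genes lower, that count is near the background and no result about the list. This was EXOSC3, a cap subunit of the exosome, with 21.2, 17.0 and 17.6 CPM with triptolide, against 33.2, 34.1 and 40.3 CPM untreated. Its log2 fold change was -0.95 ± 0.17 (SE, edgeR adjusted p = 0.00349), and under ribosomal protein scaling the adjusted p was 0.0917. The count of exosome genes that fell was 3 with the GC offset and 2 without triptolide replicate 2. Over all genes those fits called 1794 of 15202 and 896 of 15516 lower. Of 10 tested neighbours and copies of the 8 lncRNAs, none passed in edgeR, DESeq2 or limma-voom, and 4 had an unadjusted p under 0.05. With the GC offset 3 passed as lower, beside 1794 of 15202 genes lower in that fit. FRMD8, beside NEAT1, had a log2 fold change of 0.50 (edgeR adjusted p = 0.103) and passed without triptolide replicate 2 (adjusted p = 0.0403).

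Of 17 lncRNAs that host small nucleolar RNAs in their introns, 10 fell, 1 rose, and the median log2 fold change was -0.62. Over all tested long noncoding types 2.94% were lower and 25.1% higher, with a median of 0.46. SNHG1 had 39.0, 58.8 and 50.7 CPM with triptolide, against 104, 117 and 141 CPM untreated, and fell with a log2 fold change of -1.28 ± 0.19 (SE, edgeR adjusted p = 0.00118). SNHG8 fell with a log2 fold change of -1.33 (edgeR adjusted p = 0.00256) and SNHG12 with -1.16 (edgeR adjusted p = 0.00187). SNHG5 rose, with 5.60, 8.31 and 9.98 CPM with triptolide, against 1.79, 2.27 and 3.25 CPM untreated, and a log2 fold change of 1.71 (edgeR adjusted p = 0.00201). The count of hosts that fell was 4 under ribosomal protein scaling, and 6 with a minimum mean of 5 CPM or without triptolide replicate 3, untreated replicate 2 or untreated replicate 3. Over all genes, ribosomal protein scaling called 133 of 15202 lower, and the minimum mean of 5 CPM called 336 of 10290. The 3 fits with a library left out called 457 of 15429, 407 of 15903 and 711 of 15693 lower, in that order.

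Of 23 tested lncRNAs of a mixed list, 5 rose, 1 fell, and the median log2 fold change was 0.11. These counts are near the background of the tested long noncoding types, 25.1% higher and 2.94% lower, and are no result about the list. LUCAT1, a stress-responsive lncRNA, had 9.76, 12.4 and 13.5 CPM with triptolide, against 4.43, 4.21 and 3.52 CPM untreated, and rose with a log2 fold change of 1.56 ± 0.21 (SE, edgeR adjusted p = 0.000537). LINC00511 rose with a log2 fold change of 0.94 (edgeR adjusted p = 0.012), a call lost without untreated replicate 1 (adjusted p = 0.0636) or 2 (adjusted p = 0.0669). H19, an imprinted lncRNA abundant in placenta, had 4.85, 4.07 and 1.32 CPM with triptolide, against 0.393, 1.72 and 0.661 CPM untreated, with groups that overlapped and a log2 fold change of 1.85 (edgeR adjusted p = 0.0339). H19 lost its call in 6 alternatives, among them the fit without triptolide replicate 1 (adjusted p = 0.119), and was not tested at a minimum mean of 5 CPM. UCA1, first described in bladder carcinoma, fell with a log2 fold change of -0.59 (edgeR adjusted p = 0.0327), a call lost in 9 of 16 alternatives. The count that rose went down to 1 without untreated replicate 1, and to 2 without triptolide replicate 1, without untreated replicate 2 or with a minimum mean of 5 CPM. It was 3 without triptolide replicate 2, triptolide replicate 3 or untreated replicate 3. Over all genes, 1135 of 15838 were higher without untreated replicate 1, and 1508 of 15721 without triptolide replicate 1. Without untreated replicate 2 they were 953 of 15903, and with a minimum mean of 5 CPM 584 of 10290. The fits with a count of 3 called 1580 of 15516, 1119 of 15429 and 1238 of 15693 higher, in that order. H19 moved with the trophoblast markers given above, whose part in it was not tested.

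**Figure D4:**
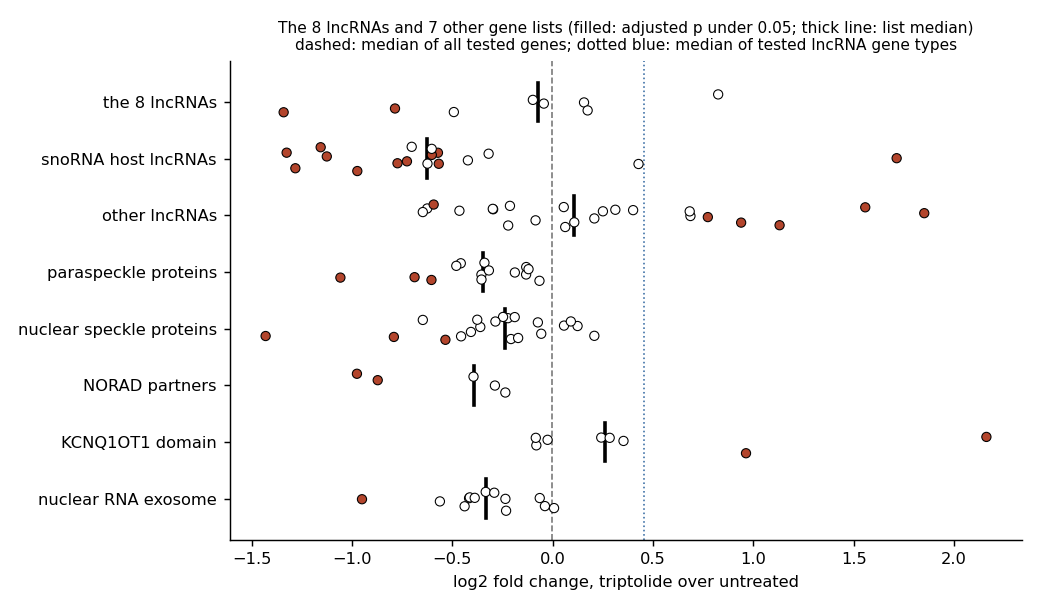
Log2 fold change of triptolide over untreated (x axis) of each tested gene, one point per gene, in the 8 lncRNAs and in 7 gene lists, with filled points for an adjusted p under 0.05 and a thick line at each list's median. The median of the snoRNA hosts is -0.62 and that of the 8 lncRNAs -0.07, beside 0.46 for all tested long noncoding gene types (dotted line).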

How the data were processed

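RNA was captured with oligo(dT) beads and sequenced as paired reads, per the labels' protocols. The deposited values are whole-number counts per Ensembl gene that the authors made with HISAT2 and featureCounts, per the submitters' processing notes. Not given in the sources used here are versions, genome build, strand setting and the treatment of multiply matching reads. Groups follow each sample's treatment label, although the design text of the series names the triptolide arm as control.

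Gene names were found for 35639 of 35716 IDs. Genes kept by filterByExpr (15202) were scaled by TMM and tested with glmQLFit and glmQLFTest in edgeR 4.0.16 (R 4.3.3), on group alone, and p-values were adjusted over all of them by Benjamini-Hochberg. Standard errors come from the fold change and its F statistic. Shares, ratios and pair differences were tested by exact two-sided permutation of 3 against 3 libraries (scipy 1.17.1), with p adjusted over the 4 pairs. No 2 libraries agreed within sampling noise. The fit was tested on simulated data, where it recovered 6 of 50 genes changed 1.5-fold, 36 of 50 changed 2-fold and 48 of 50 changed 3-fold. It made 13 false calls among unchanged genes there. A gene that did not pass may therefore still differ by a small fold.

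The members, the 12 other lists and the rule for named genes were chosen with earlier results of these data known. The rule took all 8 lncRNAs, their genomic partners, the 3 genes most like MALAT1 and NEAT1, and up to 3 genes per direction with the smallest adjusted p from each list but the 4 of cell type markers. One gene that the rule takes is not reported here. MATR3, a listed paraspeckle gene whose symbol has 2 IDs, was left out. Exon lengths, GC content (found for 99.2% of tested genes), gene types and sequences came from GENCODE 29. Its build may differ from that of the counts.

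Other settings tried were scaling by RLE, by 82 ribosomal protein genes or by library totals, no filter, a minimum mean of 5 CPM, DESeq2 1.42.0, limma-voom (limma 3.58.1), a GC offset, a replicate block with and without it, and each library left out. Figures used matplotlib 3.10.9.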

Additional observations from a re-analysis of the deposited data

How the results depend on the processing

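The fall of MALAT1 held in all 16 alternatives. The number of the 8 lncRNAs called lower was 1 in place of 2 under ribosomal protein scaling, and between 1 and 2 when single libraries were left out. The number called higher was 1 in place of 0, through KCNQ1OT1, with no filter, DESeq2, the GC offset and the replicate block with or without the GC offset, and between 0 and 1 when single libraries were left out. Same-numbered libraries did not deviate together (correlations 0.03, -0.04 and -0.44), and libraries of unlike number had correlations of -0.28 to 0.31. Such deviations also carry differences in base composition and gene length between libraries. They cannot decide whether libraries were paired, and the labels give no pairing. The replicate block gave 1523 genes higher and 856 lower, KCNQ1OT1 at 0.83 (adjusted p = 0.0156), and a block p of 0.25, the smallest possible, for the ratio of NEAT1 to MALAT1.

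The log2 fold change of NORAD turned to 0.0613 under ribosomal protein scaling, 0.0311 with the GC offset and 0.0366 with the block and GC offset, and ran from -0.267 to 0.0641 over single libraries left out. That of PVT1 turned to 0.0289 under library totals, 0.167 under ribosomal protein scaling and 0.0389 at a minimum mean of 5 CPM, and ran from -0.128 to 0.0903 over single libraries left out. Over single libraries left out MIR4435-2HG ran from -0.0147 to 0.224 and TUG1 from -0.0039 to 0.369. The difference in share of counts was 0.0013 percentage points without MALAT1 and NEAT1. The difference between OIP5-AS1 and OIP5 ran from -0.077 to 0.278 over single libraries left out. The cause of these turns was not tested.

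Over all genes, calls higher and lower were 1201 and 133 (90.0% higher) under ribosomal protein scaling, 1671 and 594 (73.8%) under library totals, 2068 and 1794 (53.5%) with the GC offset, 584 and 336 of 10290 at a minimum mean of 5 CPM, and 63.3% higher as reported. Without single libraries, 953 to 1580 genes were higher and 407 to 1034 lower.

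With 3 libraries a group, exact tests cannot go below 0.1. Each lncRNA had 436 to 12510 counts per group. Isoforms, antisense reads and near copies were not separated.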
